A study of Mus musculus with 12 samples.

Results

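This account covers the comparison of fistula vein with sham vein in the libraries with a high level of Dbp, a clock-controlled transcription factor. Libraries were selected on the measured value itself: those with Dbp at 30 CPM or more (CPM, a count scaled to a common library total, here the sum of the library's counts), which took 8 of the 12 libraries of the series. The 8 are sham 1, 2 and 3 (n = 3) and AVF-CKD 1 to 5 (n = 5). Dbp was at 106, 90.4 and 92.7 CPM in these sham libraries and at 96.5, 87.6, 81.5, 77.4 and 98.2 CPM in these AVF-CKD libraries. The 4 libraries outside were sham 4, 5 and 6, at 21.2, 7.47 and 6.25 CPM, and AVF-CKD 6, at 7.58 CPM. The limit therefore fell in the gap between 77.4 CPM just inside and 21.2 CPM just outside.

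The study sequenced RNA of mouse veins taken 7 days after surgery. Sham libraries were made from the jugular vein of sham-operated mice, and AVF-CKD libraries from the venous limb of an AVF after AVF-CKD surgery. These letters are not explained in the labels and are read here as an arteriovenous fistula, which sends arterial flow into a vein, and chronic kidney disease. The labels name no strain, sex, age, genotype or kidney procedure, and whether the libraries are from different mice is not said, so a p-value here reflects only how these samples vary, which may be technical. On this reading operation, vessel and kidney disease differ together between the groups and cannot be told apart. The high and low Dbp levels also go with the title numbers of the samples, and the labels give no time of day for tissue collection.

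In a fistula the vein wall meets arterial pressure and flow, and it answers with inflammation, matrix turnover and growth of the inner layer. Arginase-1, encoded by Arg1, turns arginine into ornithine and urea and is a mark of alternatively activated macrophages in mice. Matrix metalloproteinase-9, encoded by Mmp9, cleaves denatured and basement membrane collagen and is stored by neutrophils and made by macrophages. The receptor encoded by Il6ra binds interleukin-6 and passes the signal through gp130, encoded by Il6st, to the Janus kinases and STAT3.

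The summed counts ran from 52647983 to 60142016 in sham 1, 2 and 3 and from 38653830 to 49641417 in AVF-CKD 1 to 5. The sham libraries were all deeper than the AVF-CKD libraries (two-sided exact permutation test over 56 assignments, p = 0.0357, the smallest this design can give, adjusted p = 0.125 over 7 library measures). Endothelial, smooth muscle and fibroblast markers were present in all 8 libraries, with Pecam1 at 296.5 to 518.1, Acta2 at 471.8 to 1030 and Col1a1 at 5496 to 9678 CPM on column sums. Skeletal muscle was present at very unequal levels, with Ckm at 53.7 to 1656 CPM. The gland markers Smr3a and Krt14 were at 0 counts in 7 of the 8 libraries, while the thyroid gene Tg had counts in all 8, at 0.134 to 1.53 CPM, and the cardiac marker Myh6 was at or below 0.104 CPM.

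No gene passed the test. The edgeR quasi-likelihood test covered 19420 genes, and 0 were called at an adjusted p below 0.05 in either direction (0% of genes tested), and the lowest adjusted p was 0.448. Before adjustment 1629 genes lay below 0.05, of which 891 were higher in AVF-CKD (4.59% of genes tested) and 738 lower (3.8%). The groups did not overlap for 682 genes that were higher in every AVF-CKD library than in every sham library (3.51%) and for 639 that were lower in every one (3.29%). DESeq2 called 74 genes higher and 55 lower on the same counts (1951 below 0.05 before adjustment), and limma voom with weighted samples called 0 (2538 before adjustment). For 77.8% of genes the fitted 95% interval stayed inside a 2-fold difference either way. With counts thinned to equal totals, edgeR again called 0 genes, with 1591 below 0.05 before adjustment. Values below are therefore given as levels and differences, and none of them is a called change in the edgeR fit. CPM values from here on use library sizes scaled by the trimmed mean of M-values (TMM), and fold changes are log2, AVF-CKD minus sham, ± the standard error of the fit.

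Arg1, Mmp9 and Il6ra, chosen with earlier results of these data known, were higher in every AVF-CKD library of this comparison than in every sham library. The same held for 3.51% of all genes tested. Because of that choice, the separation of these 3 genes is a description and not a test. Arg1 was at 4.50, 22.6 and 18.8 CPM in sham 1 to 3 and at 48.8, 65.3, 106, 231 and 24.3 CPM in AVF-CKD 1 to 5. AVF-CKD 5 stood just above the highest sham library, and AVF-CKD 4 was far above the rest. Sham averaged 15.3 ± 9.55 CPM (SD, n = 3) against 95.04 ± 81.5 CPM (SD, n = 5) for AVF-CKD. The log2 difference was 2.64 ± 0.80 (95% interval 0.84 to 4.43, edgeR adjusted p = 0.536, DESeq2 adjusted p = 0.105).

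Mmp9 followed the same order of libraries at both ends. It was at 8.71, 17.1 and 15.0 CPM in sham and at 30.8, 39.2, 78.3, 82.7 and 18.0 CPM in AVF-CKD, again with sham 1 lowest and AVF-CKD 5 next above the sham libraries. The log2 difference was 1.88 ± 0.51 (95% interval 0.72 to 3.03; edgeR adjusted p = 0.536, DESeq2 adjusted p = 0.00905). Il6ra showed a smaller difference with a narrower spread. It was at 20.8, 24.8 and 26.8 CPM in sham and at 37.0, 34.7, 28.5, 35.8 and 35.8 CPM in AVF-CKD, and here AVF-CKD 3 was the lowest of its group. The log2 difference was 0.51 ± 0.12 (95% interval 0.25 to 0.78; edgeR adjusted p = 0.482, DESeq2 adjusted p = 0.0209).

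With the erythroid score, the mean log2 CPM of the erythroid genes, as a covariate, the difference was 0.88 for Arg1, 1.55 for Mmp9 and 0.15 for Il6ra. That score separates the groups by itself, so that score and group cannot be told apart.

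**Figure D1:**
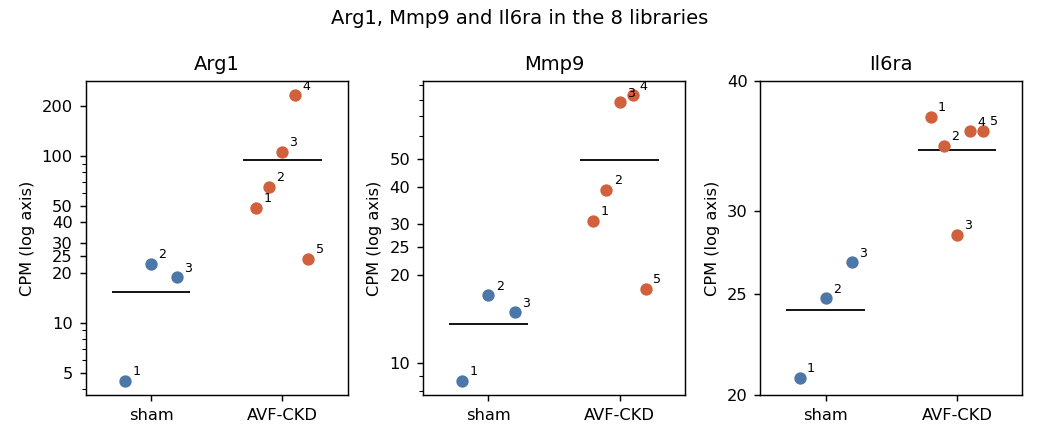
Level of Arg1, Mmp9 and Il6ra (TMM-scaled CPM, log axis) in each high-Dbp library, numbered as in the sample titles. These genes were chosen with earlier results of these data known. Points are libraries, lines are group means; in each panel every AVF-CKD point lies above every sham point, with AVF-CKD 5 lowest for Arg1 (24.3 CPM) and Mmp9 (18.0 CPM) and AVF-CKD 3 lowest for Il6ra (28.5 CPM).

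Most genes around these 3 overlapped between the groups, as did most genes tested. Of 27 genes of the interleukin-6 family and the STAT3 arm, 14 had a positive and 13 a negative difference, with a median of 0.05 (-0.01 without AVF-CKD 4) against 0.00 over all genes tested. Il6ra and Il11ra1 were the list's members whose groups did not overlap. Over all genes this held for 3.51% on the higher side and 3.29% on the lower. Il11ra1, the receptor of interleukin-11, went the other way, at 178, 136 and 119 CPM in sham and 94.1, 110, 106, 117 and 116 CPM in AVF-CKD (log2 difference -0.41 ± 0.13). Il6 itself was low and its groups overlapped, at 1.60 to 3.397 CPM in sham and 2.23 to 7.36 CPM in AVF-CKD. The shared signalling subunit Il6st was the most abundant per length of the list, by mean deposited RPKM and was at 450 to 482 CPM in sham and 384 to 550 CPM in AVF-CKD. Stat3 was at 172 to 176 and 156 to 188 CPM, and its target Socs3, a feedback inhibitor, at 80.8 to 95.4 and 60.6 to 160 CPM. The 95% interval of the Stat3 difference ran from -0.25 to 0.15.

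Among 19 tested genes of arginine, nitric oxide and polyamine metabolism, 10 were positive and 9 negative, with a median of 0.05. Arg1 was the member whose groups did not overlap, where 3.51% of all genes did not on the higher side. Nos2, the inducible nitric oxide synthase that competes with arginase for arginine, was at 3.54, 8.65 and 4.31 CPM in sham and 15.3, 7.70, 10.497, 35.05 and 3.05 CPM in AVF-CKD. Its highest library was AVF-CKD 4, as for Arg1, and its lowest AVF-CKD 5, below all 3 sham libraries. Oat, ornithine aminotransferase and the most abundant per length of the list (mean RPKM 88.7), was at 228 to 268 CPM in sham and 194 to 233 CPM in AVF-CKD, a log2 difference of -0.21 ± 0.10. The arginine carrier gene Slc7a1 had a difference of 0.33 ± 0.15.

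Of 22 tested matrix metalloproteinases and inhibitors, 13 were positive and 9 negative, with a median of 0.07 that was below 0 without sham 2, AVF-CKD 4 or AVF-CKD 5 (lowest -0.08). Mmp9 was the single member whose groups did not overlap, where 3.51% of all genes did not on the higher side. Mmp2, the most abundant per length (mean RPKM 279), overlapped widely, at 1492, 1008 and 779 CPM in sham and 846, 661, 698, 1091 and 1350 CPM in AVF-CKD, and its difference of -0.23 ± 0.28 turned to 0.06 without sham 1. The macrophage elastase gene Mmp12 reached 838 CPM in AVF-CKD 3 and was at 249 to 344 CPM in the other AVF-CKD libraries, against 106, 281 and 277 CPM in sham. The inhibitor gene Timp1 was at 165, 241 and 284 CPM in sham and 279, 332, 361, 361 and 237 CPM in AVF-CKD (0.45 ± 0.20).

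The erythroid genes had the largest median difference of the lists examined. Erythroid transcripts are those of young red cells, which circulate in the blood. In bulk tissue, more cells of a type and more RNA per cell cannot be told apart. Of 12 members tested, 11 were positive and 1 was negative, with a median log2 difference of 1.35, and 10 had an unadjusted p below 0.05 in that direction where 4.59% of all genes did. Groups did not overlap for 9 of them, against 3.51% of all genes. The median ranged from 1.02 to 1.70 with 1 library left out.

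Hbb-bs, an adult beta-globin and the most abundant per length of the list, was at 421, 960 and 1233 CPM in sham and 2031, 1991, 1801, 1956 and 2918 CPM in AVF-CKD (difference 1.30 ± 0.33, edgeR adjusted p = 0.495). Sham 1 was the lowest library and AVF-CKD 5 the highest, and no AVF-CKD library reached down to the sham range. Alas2, the red cell enzyme that starts heme synthesis, was at 33.3, 68.6 and 88.3 CPM in sham and 183, 159, 149, 199 and 251 CPM in AVF-CKD (difference 1.57 ± 0.31, edgeR adjusted p = 0.448). The anion exchanger gene Slc4a1 (1.85 ± 0.38), Hbb-bt (1.41 ± 0.33) and Bpgm, which makes 2,3-bisphosphoglycerate in red cells (0.80 ± 0.19), had the same order of groups with no overlap. Hbb-bs and Hbb-bt are near-identical copies of each other, as are the alpha-globin genes Hba-a1 and Hba-a2. Counts may be split within each pair, so the value of each of these genes is uncertain. Gata1, the erythroid transcription factor, was the negative member, at 0.434 to 0.667 CPM in sham and 0.257 to 0.567 CPM in AVF-CKD. The transferrin receptor gene Tfrc, which many dividing cells also use, was at 17.3 to 28.1 and 22.0 to 35.9 CPM.

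Outside the selection, both groups stood at other levels of these genes than within it. On column sums, Hbb-bs was at 1704, 2432 and 2382 CPM in sham 4, 5 and 6 and at 1306 CPM in AVF-CKD 6. Alas2 was at 224, 203 and 215 CPM in those sham libraries and 121 CPM in AVF-CKD 6. Sham 4, 5 and 6 were thus within or near the range of AVF-CKD 1 to 5, and AVF-CKD 6 lay below all of AVF-CKD 1 to 5. Sham 1, 2 and 3 stood below all other libraries for both genes. The median difference of the list was -0.74 in the low-Dbp libraries, where AVF-CKD is a single library whose spread is assumed to be that of the others. The difference between the fistula effects in high-Dbp and low-Dbp libraries was tested as an interaction in edgeR over all 12 libraries. Among 21066 genes, 0 were called (0%), the lowest adjusted p was 1.00, and 436 had an unadjusted p below 0.05 (2.07%); DESeq2 called 6 and had 517. In the erythroid list 10 of 12 members lay below 0.05 before adjustment, where 2.07% of all genes did. The effect of AVF-CKD in high-Dbp minus that in low-Dbp libraries was 2.36 ± 0.53 for Alas2 and 1.99 ± 0.58 for Hbb-bs (edgeR interaction adjusted p = 1.00 for each). With all 12 libraries in 1 fit the median of the list was 0.21.

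**Figure D2:**
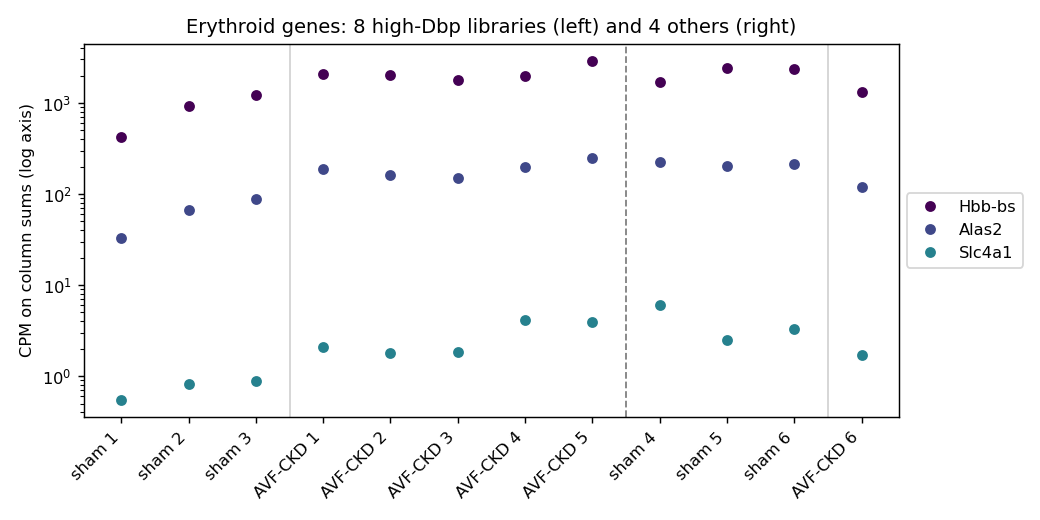
Level of 3 erythroid genes (CPM on column sums, log axis) in the 8 high-Dbp libraries, left of the dashed line, and the 4 other libraries, right of it. Sham 1, 2 and 3 are the lowest libraries for each gene, and sham 4, 5 and 6 lie near AVF-CKD 1 to 5: Hbb-bs lay between 419 and 1227 CPM in sham 1, 2 and 3 and between 1704 and 2432 CPM in sham 4, 5 and 6.

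The promoter of Alas2 is printed with that of Hbb-bs because both genes are known targets of the erythroid factor GATA1. The motif searched was AGATAA on either strand, TTATCT being its reverse complement, in RefSeq windows of 250 bases before to 50 after each start (GRCm38.p6), and matches are in capitals. The motif was in 3 of the 9 members with a window (33.3%), Hbb-bs, Alas2 and Epb42, and in 12.7% of 27025 genes.
Alas2 promoter, chrX:150547167-150547466, plus strand: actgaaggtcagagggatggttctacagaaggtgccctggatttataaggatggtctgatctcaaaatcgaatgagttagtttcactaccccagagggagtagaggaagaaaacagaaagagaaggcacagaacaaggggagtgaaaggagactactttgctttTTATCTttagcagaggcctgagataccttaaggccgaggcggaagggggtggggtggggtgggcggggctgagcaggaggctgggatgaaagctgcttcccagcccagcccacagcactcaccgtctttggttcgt
Hbb-bs promoter, chr7:103827879-103828178, minus strand: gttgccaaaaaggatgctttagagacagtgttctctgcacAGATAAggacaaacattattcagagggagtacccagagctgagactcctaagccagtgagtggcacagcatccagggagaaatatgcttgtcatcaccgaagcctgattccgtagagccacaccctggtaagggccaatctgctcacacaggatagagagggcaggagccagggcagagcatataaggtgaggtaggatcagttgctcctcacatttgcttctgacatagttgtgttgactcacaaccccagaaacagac
A match describes the letters in the window and is not a binding site.

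Genes of the interferon response all had a negative difference, whose size depended on sham 2. Interferon-stimulated genes encode antiviral proteins and carry response elements read by a complex that holds IRF9. All 28 members were negative, with a median of -0.49 against 0.00 over all genes, but 5 had an unadjusted p below 0.05, where 3.8% of all genes did in that direction, and the groups of 2, Ifi27l2a and Bst2, did not overlap (3.29% of all genes). Without sham 2 the median was -0.11, without sham 1 it was -0.82, and without the other libraries it was -0.60 to -0.45.

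Ifi27l2a, a mitochondrial membrane protein induced by interferon and the most abundant per length of the list, was at 173, 259 and 320 CPM in sham and 106, 142, 140, 132 and 134 CPM in AVF-CKD (difference -0.94 ± 0.18, edgeR adjusted p = 0.448). All AVF-CKD libraries lay below the lowest sham library. Bst2, the virus tether tetherin, was at 183, 371 and 210 CPM in sham and 167, 174, 172, 115 and 103 CPM in AVF-CKD (-0.80 ± 0.26). Isg15, a ubiquitin-like protein, was at 36.2, 140 and 84.4 CPM in sham and 48.2, 33.5, 55.0, 30.5 and 37.3 CPM in AVF-CKD (-1.08 ± 0.36), with sham 1 inside the AVF-CKD range and sham 2 far above it. Irf7, the factor that amplifies the response, spread from 78.7 to 258 CPM within sham and overlapped fully with AVF-CKD at 71.7 to 163 CPM. Ifi27l2a lay the same way in the low-Dbp libraries (-1.10), with a difference between the effects of 0.16 ± 0.57.

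The Isg15 and Ifit1 promoters are printed to show the response element, which was found in part of the list. The motif GAAANNGAAA, TTTCNNTTTC on the other strand, was in 13 of the 20 members with a RefSeq window (65.0%) and in 3.99% of 27025 genes; overlapping matches run together in capitals.
Isg15 promoter, chr4:156200769-156201068, minus strand: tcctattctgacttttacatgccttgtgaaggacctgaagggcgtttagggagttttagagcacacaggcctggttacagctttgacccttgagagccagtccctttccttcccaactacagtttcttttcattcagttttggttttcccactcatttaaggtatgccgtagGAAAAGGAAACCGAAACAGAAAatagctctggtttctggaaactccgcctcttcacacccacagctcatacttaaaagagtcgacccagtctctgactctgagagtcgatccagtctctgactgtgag
Ifit1 promoter, chr19:34640639-34640938, plus strand: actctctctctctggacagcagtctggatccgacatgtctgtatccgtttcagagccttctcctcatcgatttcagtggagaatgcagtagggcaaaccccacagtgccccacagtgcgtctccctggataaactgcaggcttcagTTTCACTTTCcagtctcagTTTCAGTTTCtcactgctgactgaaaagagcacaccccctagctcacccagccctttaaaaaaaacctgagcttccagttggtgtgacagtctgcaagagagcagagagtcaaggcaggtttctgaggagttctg
Isg15 held 3 matches that overlap in 1 run and Ifit1 held 2 apart from each other.

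Cell cycle genes all had a small positive difference. All 30 members were positive, from 0.01 to 0.55, with a median of 0.23, and 6 had an unadjusted p below 0.05 (4.59% of all genes in that direction), while the groups of 6 did not overlap (3.51% of all genes). The median stayed between 0.10, without sham 1, and 0.31, without sham 3. Foxm1, the factor that drives mitotic genes, was at 14.6, 17.0 and 17.8 CPM in sham and 22.5, 23.4, 22.8, 22.7 and 22.1 CPM in AVF-CKD (difference 0.46 ± 0.09, edgeR adjusted p = 0.448). Its AVF-CKD libraries were nearly equal to each other. Mki67, the proliferation antigen, was at 57.5, 66.8 and 67.4 CPM in sham and 74.9, 84.6, 76.7, 95.1 and 84.8 CPM in AVF-CKD (0.38 ± 0.10). The kinetochore motor gene Cenpe had a difference of 0.49 ± 0.10, the spindle checkpoint kinase gene Bub1b 0.43 ± 0.10 and the topoisomerase gene Top2a 0.35 ± 0.11, each without overlap.

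The list's most abundant member per length, Ube2c, did not behave like the others. Ube2c was at 275, 324 and 63.9 CPM in sham and 330, 886, 215, 109 and 75.8 CPM in AVF-CKD, a much wider spread than that of Mki67 or Foxm1. On column sums its skeletal muscle neighbour Tnnc2, troponin C of fast fibres, was at 258, 298 and 45.3 CPM in sham and 318, 864, 191, 88.1 and 56.6 CPM in AVF-CKD, in the same order of libraries. Exons of other genes overlap 22.8% of the exonic bases of Ube2c and 74% of those of Tnnc2. Without AVF-CKD 2 the difference of Ube2c turned from 0.55 to -0.28.

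**Figure D3:**
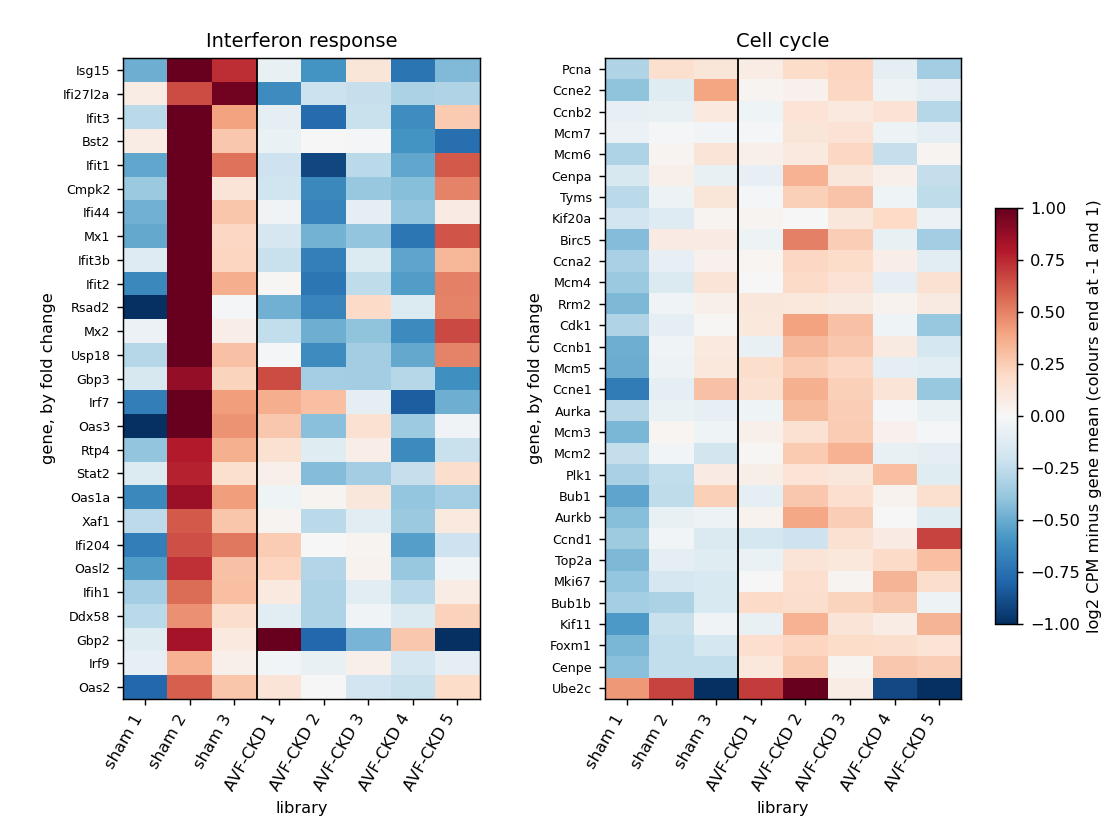
Level of members of the interferon list (27 of 28 shown) and of all cell cycle members tested in each high-Dbp library, as log2 CPM minus the gene's mean over the 8 libraries, with genes in order of their difference and a line between sham and AVF-CKD. Sham 2 is high for interferon genes while sham 1 is not, and most cell cycle genes are low in sham 1; Ube2c, the last row, stands apart from the other cell cycle genes.

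Genes of myeloid cells had mixed differences with wide spreads. Of 24 macrophage and monocyte genes 16 were positive, with a median of 0.09 that turned to -0.11 without sham 1. The integrin gene Itgam was at 113, 216 and 234 CPM in sham and 311, 264, 294, 346 and 237 CPM in AVF-CKD (0.63 ± 0.23), without overlap, but other genes overlap 68.7% of its exonic bases. Mertk, the receptor with which macrophages take up dying cells, was at 35.3, 39.0 and 50.3 CPM in sham and 64.3, 52.9, 60.8, 48.4 and 48.7 CPM in AVF-CKD (0.41 ± 0.14). Spp1, osteopontin, was at 132, 409 and 337 CPM in sham and 747, 977, 1720, 570 and 297 CPM in AVF-CKD (1.56 ± 0.57), and AVF-CKD 5 again lay inside the sham range.

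Neutrophil genes had the next largest median after the erythroid list. Of 15 tested members 13 were positive, with a median of 0.66, 3 had an unadjusted p below 0.05 on the higher side (4.59% of all genes) and 0 were without overlap (3.51% of all genes). Trem1, an amplifying receptor of myeloid cells, was at 1.75, 5.12 and 7.04 CPM in sham and 7.98, 12.1, 26.3, 13.5 and 5.05 CPM in AVF-CKD (1.49 ± 0.58). S100a9, a subunit of calprotectin, was at 41.2, 66.0 and 73.3 CPM in sham and 79.1, 106, 170, 79.4 and 39.6 CPM in AVF-CKD (0.66 ± 0.41). In both genes AVF-CKD 5 was at or below the middle of the sham libraries. The chemokine receptor gene Cxcr2 had a difference of 1.03 ± 0.41. The mean log2 CPM of the list was 2.48, 3.09 and 3.42 in sham and 3.403, 3.58, 4.08, 3.95 and 2.52 in AVF-CKD, so that sham 1 and AVF-CKD 5, which were also the lowest of their groups for Arg1 and Mmp9, were lowest here; the part of leukocyte content in the differences of Arg1 and Mmp9 was not tested. The neutrophil surface gene Ly6g was at or below 0.381 CPM in all 8 libraries.

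Chemokine genes split by member. Of 31 tested 16 were positive and 15 negative, with a median of 0.07 that ranged from -0.19 to 0.20 with 1 library left out and was below 0 without sham 1, AVF-CKD 1, AVF-CKD 3 or AVF-CKD 4. Ccl12, a monocyte attractant, was at 18.9, 28.0 and 24.0 CPM in sham and 13.5, 14.4, 13.006, 10.8 and 8.73 CPM in AVF-CKD (difference -0.97 ± 0.18, edgeR adjusted p = 0.448). Its neighbours on chromosome 11, Ccl7 (-0.89 ± 0.27) and Ccl8 (-0.84 ± 0.36), were lower on average with overlapping groups, and Ccl8, the most abundant per length, was at 254, 718 and 590 CPM in sham and 318, 462, 217, 265 and 195 CPM in AVF-CKD. Cxcl12, which retains CXCR4-bearing cells, lay the other way, at 225, 197 and 248 CPM in sham and 316, 449, 333, 601 and 480 CPM in AVF-CKD (difference 0.96 ± 0.22, edgeR adjusted p = 0.482). Cxcl5, a neutrophil attractant, had a difference of 1.22 ± 0.47. Ackr1, the venular scavenging receptor that holds chemokines, was at 25.2, 48.6 and 61.0 CPM in sham and 34.2, 23.4, 30.5, 21.3 and 13.5 CPM in AVF-CKD (-0.87 ± 0.33).

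Genes of B and plasma cells and of antigen presentation were lower on average. Of 15 B and plasma cell genes 12 were negative, with a median of -0.64, and the groups of 3 did not overlap in that direction (3.29% of all genes). The groups of 1 member, Prdm1, did not overlap in the other direction (0.45 ± 0.21; 3.51% of all genes). Jchain, which joins secreted immunoglobulins, was at 1.55, 2.29 and 2.67 CPM in sham and 0.196, 0.386, 0.422, 1.28 and 0.858 CPM in AVF-CKD (difference -1.79 ± 0.50, edgeR adjusted p = 0.536). In the low-Dbp libraries the median of this list had the other sign, at 0.49. Of 16 genes of MHC class II presentation 14 were negative, with a median of -0.36. On the lower side 5 had an unadjusted p below 0.05 (3.8% of all genes), and on the higher side 1 did (4.59%). The groups of 1 did not overlap on the lower side (3.29% of all genes), and those of 1 on the higher side (3.51%). Cd74, the invariant chain, was at 2574, 3849 and 3022 CPM in sham and 2532, 2993, 1725, 2091 and 2223 CPM in AVF-CKD (-0.45 ± 0.20). H2-Aa had a difference of -0.58 ± 0.23, H2-Oa -0.67 ± 0.22 and the dendritic cell receptor gene Flt3 -0.63 ± 0.22, while Itgax, an integrin of dendritic cells and macrophages, was the positive member without overlap (0.70 ± 0.27). Of 23 T and NK cell genes 18 were negative, with a median of -0.33 that was -0.03 without sham 2.

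In the vessel wall, Col5a3 had the smallest p on the higher side among the genes open to naming by the rule given below. Col5a3, the alpha-3 chain of type V collagen, was at 135, 168 and 159 CPM in sham and 234, 249, 234, 277 and 301 CPM in AVF-CKD (difference 0.75 ± 0.12, edgeR adjusted p = 0.448, DESeq2 adjusted p = 2.07e-05). Col5a3 had a difference of 0.82 in the low-Dbp libraries. The 31 genes of fibrillar and provisional matrix had a median of -0.09, with 13 positive and 18 negative, and the median was 0.09 without sham 1. Of 20 basement membrane genes 16 were positive, with a median of 0.18 that was 0.04 without AVF-CKD 5. Nid2, a linker of laminin and collagen, was at 37.7, 32.4 and 38.5 CPM in sham and 41.0, 48.4, 46.6, 60.5 and 64.0 CPM in AVF-CKD (0.53 ± 0.15). Pdgfb, a growth factor for smooth muscle and pericytes, had a difference of 0.42 ± 0.12 without overlap.

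Of 20 contractile smooth muscle genes 11 were positive, with a median of 0.07. The median lay between -0.15, without AVF-CKD 5, and 0.11, and was also below 0 without sham 2, sham 3 or AVF-CKD 2. On the lower side 4 members had an unadjusted p below 0.05, where 3.8% of all genes did, and on the higher side 1 did, where 4.59% did. All 20 overlapped between groups, where 3.51% of all genes did not on the higher side and 3.29% on the lower. Cnn1, calponin, was at 71.2, 55.1 and 77.2 CPM in sham and 27.0, 30.3, 57.4, 28.1 and 48.8 CPM in AVF-CKD (-0.82 ± 0.26). The other 3 on the lower side were Actg2 (-0.59 ± 0.19), Myl9 (-0.48 ± 0.18) and Tagln (-0.55 ± 0.23), with 67.9% of the exonic bases of Tagln overlapped by other genes. The member on the higher side was Pln, phospholamban, which was low throughout (1.74 ± 0.65). Acta2, the smooth muscle actin and the most abundant per length, had a difference of -0.41 ± 0.21, the smooth muscle myosin gene Myh11 one of -0.33 ± 0.30 and Flna, filamin A, one of 0.14 ± 0.14. Of 20 adventitial fibroblast genes 14 were negative, with a median of -0.19. Igfbp6, a binding protein of insulin-like growth factor 2, was at 394, 330 and 321 CPM in sham and 219, 229, 236, 257 and 286 CPM in AVF-CKD (-0.51 ± 0.12). Lrrc15, a marker of activated fibroblasts, had a difference of -0.57 ± 0.15 without overlap here and of 0.86 in the low-Dbp libraries (effects differing by -1.44 ± 0.33, edgeR interaction adjusted p = 1.00). Of 23 endothelial genes 17 were negative, with a median of -0.10, and Ramp2, the partner of the adrenomedullin receptor, had a difference of -0.32 ± 0.11.

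Stress and metabolism lists showed small medians. Of 22 genes of the unfolded protein response 16 were negative, with a median of -0.16 that ranged from -0.19 to -0.13 with 1 library left out, and 6 had an unadjusted p below 0.05 on that side, where 3.8% of all genes did. Manf, a secreted factor of the endoplasmic reticulum, was at 195, 180 and 157 CPM in sham and 122, 119, 150, 115 and 101 CPM in AVF-CKD (difference -0.55 ± 0.13, edgeR adjusted p = 0.495). Creld2 (-0.55 ± 0.17) and Xbp1 (-0.29 ± 0.11) lay the same way with overlap, and Fkbp7, a folding enzyme of the same compartment, is among the lowest p below. Of 26 hypoxia and glycolysis genes 22 were positive, with a median of 0.28, 4 had an unadjusted p below 0.05 on the higher side (4.59% of all genes) and 0 were without overlap (3.51% of all genes). Egln3, an oxygen sensor induced by hypoxia, was at 7.04, 5.19 and 4.49 CPM in sham and 10.2, 11.7, 9.49, 15.5 and 5.57 CPM in AVF-CKD (0.91 ± 0.30). Fosb, an immediate early gene, was at 40.03, 12.3 and 40.6 CPM in sham and 4.18, 12.4, 7.06, 8.38 and 23.0 CPM in AVF-CKD (-1.50 ± 0.54).

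**Figure D4:**
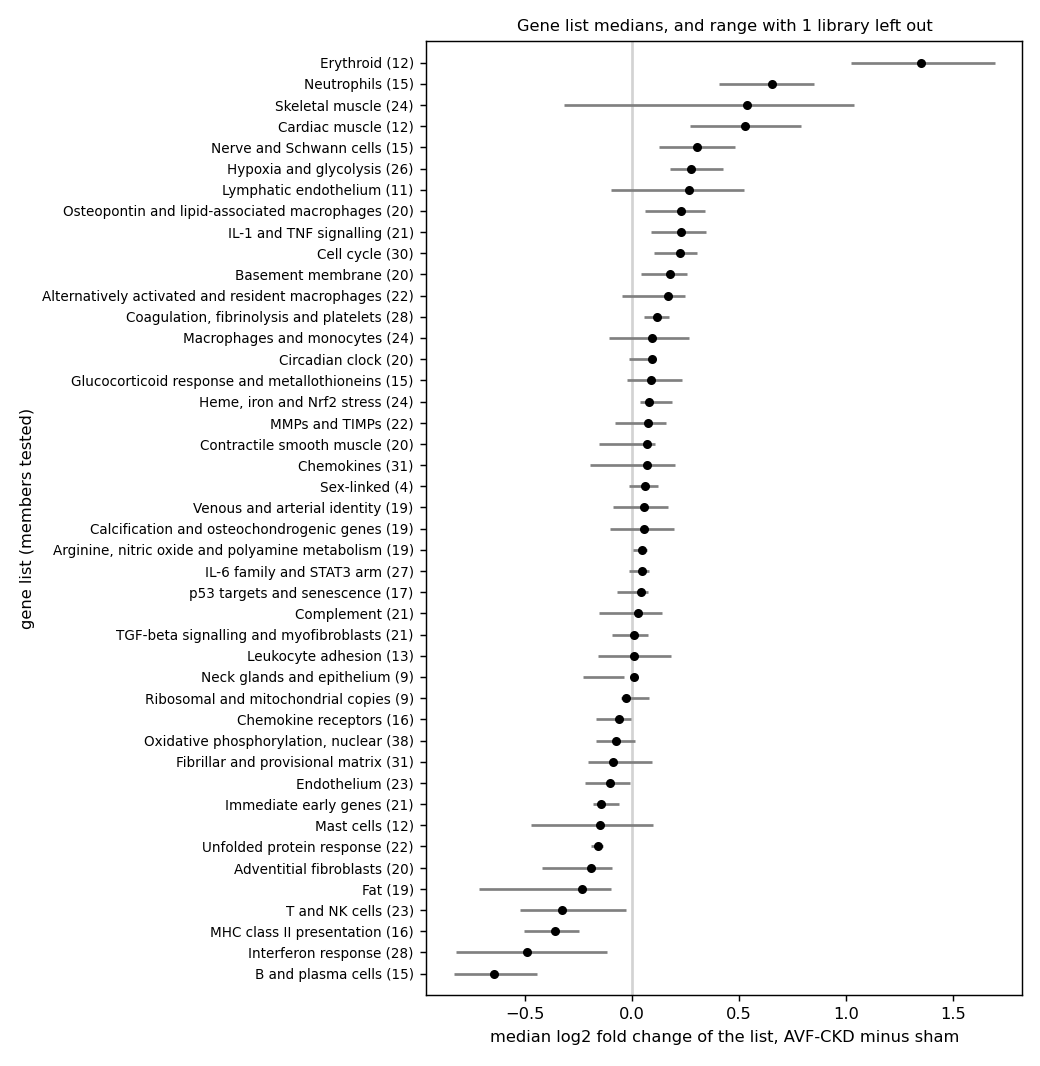
Median log2 difference, AVF-CKD minus sham, of each gene list (points, with the number of members tested) and its range when 1 library is left out (lines; the members that pass the low-count filter can differ between these fits, so that a point may lie outside its line). The erythroid list lies highest at 1.35 and the B and plasma cell list lowest at -0.64, and the skeletal muscle list spans -0.32 to 1.04.

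The genes with the smallest p on the higher side included the erythroid genes Alas2 and Trim10, a red cell ubiquitin ligase (1.81 ± 0.35). Apex2, a repair endonuclease, was at 13.7, 19.7 and 22.1 CPM in sham and 30.7, 32.2, 28.7, 32.5 and 36.8 CPM in AVF-CKD (0.80 ± 0.16). It lies beside Alas2 on chromosome X, and the gene models overlap (150519519 to 150589868 for Apex2, 150547375 to 150570638 for Alas2, GRCm38), so reads of the 2 genes may be shared. Sham 4, 5 and 6 had Apex2 at 36.0, 36.8 and 37.6 CPM on column sums, as for Alas2 above the level of sham 1, 2 and 3. Others were Col5a3 and Foxm1 above, Nav2, a cytoskeletal protein (0.86 ± 0.17), Raet1e, a ligand of the NKG2D receptor (0.77 ± 0.15), and 2 genes near the lower limit of counting. Car6, a secreted carbonic anhydrase, lay between 0.0720 and 0.267 CPM in sham and at 0.606, 1.03, 0.738, 1.32 and 1.13 CPM in AVF-CKD (2.71 ± 0.47), and Dio3os, an antisense RNA of the deiodinase gene Dio3, had a difference of 2.14 ± 0.39. The strand setting is not known here, so reads of Dio3os and of an overlapping gene may not be told apart.

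On the lower side Nmb, neuromedin B, had the smallest p among the genes open to naming. It was at 9.26, 7.95 and 8.19 CPM in sham and 4.97, 4.66, 3.94, 3.68 and 4.38 CPM in AVF-CKD (difference -0.97 ± 0.13, edgeR adjusted p = 0.448, DESeq2 adjusted p = 4.51e-07). Cyp2e1, a cytochrome P450 of liver and fat, was at 274, 251 and 327 CPM in sham and 178, 136, 105, 137 and 149 CPM in AVF-CKD (-1.01 ± 0.16). Rarres2, which encodes the adipokine chemerin, was at 127, 129 and 127 CPM in sham and 91.8, 105, 91.8, 92.1 and 90.8 CPM in AVF-CKD (-0.44 ± 0.08). Mrap, a melanocortin receptor partner made in fat, had a difference of -0.88 ± 0.16, and Pon1, paraoxonase, one of -1.04 ± 0.18. The remainder were Mup10 (-1.61 ± 0.23), whose family of near-identical copies makes its value uncertain, Fkbp7 (-0.56 ± 0.09), Med12l (-0.61 ± 0.10), the growth suppressor gene Ndn (-0.48 ± 0.08) and the kinase gene Stk26 (-0.65 ± 0.12).

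None of these 10 genes is in the fat list. Of 19 fat genes 14 were negative, with a median of -0.23 that was -0.72 without AVF-CKD 4 and -0.10 without sham 3. On the lower side 5 had an unadjusted p below 0.05 in edgeR, where 3.8% of all genes did. The groups of 1 did not overlap on that side (3.29% of all genes). With all 12 libraries fitted together the median was -1.02. In the low-Dbp libraries, where AVF-CKD is a single library, it was -1.46. Adipoq, adiponectin, was at 136, 123 and 178 CPM in sham and 61.2, 83.7, 62.7, 118 and 69.2 CPM in AVF-CKD (-0.89 ± 0.22), and Cfd, adipsin, was at 708, 622 and 1041 CPM in sham and 338, 557, 313, 626 and 484 CPM in AVF-CKD (-0.77 ± 0.26). The mean log2 CPM of the list was 5.40 ± 0.06 (SD, n = 3) in sham and 5.00 ± 0.77 (SD, n = 5) in AVF-CKD and overlapped (exact permutation test, p = 0.393, adjusted p = 0.917 over 7 measures). The part of adherent fat in the lower values was not tested. The skeletal muscle list, with 23 of 24 members positive and a median of 0.54, changed sign to -0.32 without AVF-CKD 2, and Tnni1, troponin I of slow fibres, was at 5.27, 3.57 and 7.25 CPM in sham and 20.1, 41.1, 9.78, 28.5 and 3.95 CPM in AVF-CKD (1.95 ± 0.67). The erythroid score was the library measure besides depth whose groups did not overlap, at 3.45, 4.37 and 4.41 in sham and 5.18, 4.98, 5.03, 5.44 and 5.65 in AVF-CKD (exact permutation test, p = 0.0357, adjusted p = 0.125 over 7 measures).

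For the interaction the 3 smallest p among the genes open to naming belonged to Pacsin1, Stk26 and Apex2, none called. Pacsin1, a protein of membrane uptake in neurons, was at 1.05, 0.937 and 1.37 CPM in sham and 0.724, 0.592, 0.590, 0.766 and 0.564 CPM in AVF-CKD (-0.79 ± 0.22), and the effects differed by -3.10 ± 0.54 (edgeR interaction adjusted p = 1.00). Outside the selection its single AVF-CKD library held 2.27 CPM on column sums, and the sham libraries 0.414, 0.760 and 0.232 CPM. Stk26 was at 11.999 CPM in AVF-CKD 6 and at 9.39, 7.92 and 7.16 CPM in sham 4, 5 and 6, and the effects differed by -1.25 ± 0.24 (edgeR interaction adjusted p = 1.00). For Arg1, Mmp9 and Il6ra the difference in the low-Dbp libraries had the same sign and similar size, at 2.24, 1.81 and 0.67, and the effects differed by 0.39 ± 1.21, 0.06 ± 0.80 and -0.16 ± 0.20. On column sums AVF-CKD 6 held 77.6 CPM of Arg1, 68.9 CPM of Mmp9 and 36.3 CPM of Il6ra, and sham 4, 5 and 6 held 15.0 to 18.1, 16.8 to 23.0 and 21.7 to 24.5 CPM.

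Clock genes are described without a test, because Dbp chose the libraries. Dbp and Per3 belong to the evening-peaking output of the clock in most mouse tissues, and Arntl, which encodes BMAL1, and its partner Npas2 to the opposite phase. On column sums Per3 was at 34.5 to 63.4 CPM in the 8 libraries and 8.23 to 16.6 CPM in the 4 others. Arntl was at 7.20 to 19.2 CPM in the 8 and 39.2 to 51.4 CPM in the 4, and Npas2 at 1.79 to 4.51 and 16.9 to 26.9 CPM. Between the groups within the 8, Arntl was at 19.2, 13.1 and 13.5 CPM in sham and 11.2, 9.75, 7.20, 13.6 and 13.3 CPM in AVF-CKD, and Per2 at 17.6, 27.0 and 31.7 CPM in sham and 49.6, 35.003, 40.4, 21.6 and 28.0 CPM in AVF-CKD, with overlap in both.

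**Figure D5:**
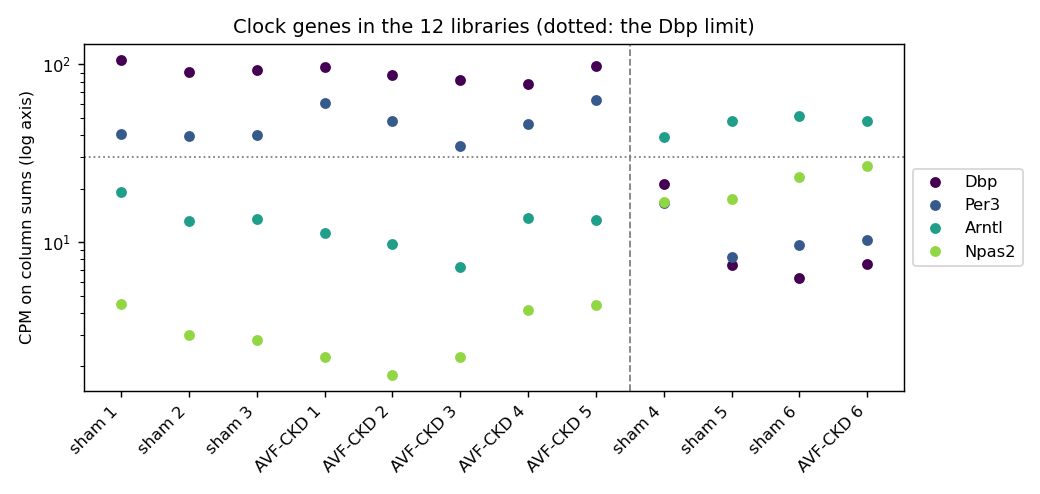
Level of Dbp, Per3, Arntl and Npas2 (CPM on column sums, log axis) in the 8 high-Dbp libraries, left of the dashed line, and the 4 others; the dotted line marks the limit of 30 CPM set on Dbp. Dbp and Per3 are high on the left and Arntl and Npas2 are high on the right, with no overlap between the sides.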

How the data were processed

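Venous RNA was made into TruSeq libraries, per the labels' protocols. The authors deposited whole-number read counts and RPKM values per gene; the submitters' processing notes name GRCm38, TopHat2 2.1.0, featureCounts and edgeR, without roles. The sources used here do not give the annotation release, strand setting or filters. Symbols came from GENCODE M21, which held 42462 of 43346 identifiers.

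edgeR 4.0.16 in R 4.3.3 took the counts of the 8 selected libraries through filterByExpr, TMM scaling and its quasi-likelihood test, with group as the single term, with Benjamini-Hochberg adjustment and a threshold of 0.05. Deposited RPKM values only ranked levels between genes within lists. Log2 CPM used a prior count of 2. For single library measures the exact permutation test (two-sided) was used. Totals of 38653830 to 60142016 counts and 3 against 5 libraries set the precision. All 28 pairs of libraries differed beyond sampling noise, the chi-square statistic being 44.4 to 197 times its degrees of freedom. Alternatives were DESeq2 1.42.0, limma 3.58.1 voom, other scalings and filters, the replicate block, covariates, all 12 libraries and leaving out each library. The fits were also run on simulated counts, and the outcome is not reported here.

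The libraries, the markers Arg1, Mmp9 and Il6ra, and all 44 gene lists were chosen with earlier results of these data known. Named genes were Arg1, Mmp9, Il6ra, the 10 smallest p in each direction, the most abundant member per length and the smallest p of each list, and the 3 smallest interaction p. Left out of this naming, except for ribosomal and mitochondrial copies, were immunoglobulin and T-cell receptor segments, pseudogenes and gene models without an established name. Other genes were named after their values were seen, and some that the rule names are not described. The erythroid covariate and the thinning of counts to equal totals were chosen after seeing the data. A few genes that belong to these lists or to the rule are not reported here by name; counts and medians of lists include them.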

Additional observations from a re-analysis of the deposited data

Results flagged for a closer look

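Among 102 groups of values checked, 6 held an AVF-CKD library whose gap to the nearest of the other 4, divided by the range, passed Dixon's 95% critical value for 5 samples (0.71); chance flags about 1 in 20 groups. AVF-CKD 3 held 28.48 CPM of Il6ra, the others 34.69 to 36.98 CPM. AVF-CKD 2 held 104.7 CPM of Rarres2, the others 90.81 to 92.15 CPM. AVF-CKD 5 held 2918 CPM of Hbb-bs, the others 1801 to 2031 CPM. AVF-CKD 1 held 106.1 CPM of Ifi27l2a, the others 132.1 to 141.6 CPM. AVF-CKD 3 held 838.2 CPM of Mmp12, the others 248.8 to 343.8 CPM. AVF-CKD 4 held 73.45 CPM of Lcn2, the others 17.17 to 27.14 CPM.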

How the results depend on the processing

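Each edgeR and limma voom alternative called 0 genes in either direction, at an adjusted p below 0.05 and, in the reported edgeR fit, also below 0.1. DESeq2 called 74 genes higher, 55 lower and 6 for the difference between high-Dbp and low-Dbp libraries; why the tools differ was not tested. Correlations of deviations between sham and AVF-CKD libraries were -0.08, 0.31 and 0.16 for the same title number. For other numbers they ran from -0.265 to 0.179. So few pairs cannot decide whether the title number pairs the libraries. With the replicate block in edgeR 0 genes were called higher and 0 lower. That fit had 2343 genes at an unadjusted p below 0.05, against 1629 without the block, and a lowest adjusted p of 0.2175. With all 12 libraries Trim10 had a difference of -0.21, Pacsin1 of 0.22, Ube2c of -0.13 and Stat3 of 0.0118; with the Dbp class as a second term Pacsin1 had 0.21 and Stat3 0.0241; the cause was not tested. With the muscle score as a covariate Ube2c had -0.32. With the erythroid score as a covariate in edgeR, which separates the groups by itself, 671 genes had an unadjusted p below 0.05. Hbb-bs had -0.0297 and Tfrc -0.00054, but both are members of the erythroid list, so their own values enter the score. Outside that list, Il1a had -0.24, Top2a -0.0544, Itgam -0.0879, Slc7a1 -0.15 and Lcn2 -0.11. The same fit gave 0.88 for Arg1, 0.15 for Il6ra and 0.31 for Col5a3, against 2.64, 0.51 and 0.75 without it. Leaving out 1 library, the difference of Mmp2 ranged from -0.43 to 0.056 and that of Ube2c from -0.28 to 0.93; for the library measures it ranged from -0.54 to 0.28 percentage points for ribosomal DNA models, -0.0548 to 0.264 points for mitochondrial copies, -0.11 to 0.99 for the muscle score and -0.27 to 0.44 for the gland score. No other reversal was found among the 95 genes checked under these alternatives. Actg2, Myl9, Pln, Myh11, Flna and Prdm1 were not among the genes checked. The scaling alternatives moved the median of all genes by at most 0.03. The number of sham libraries, 3, limits all values, and sham 1 was the lowest library for Arg1, Mmp9 and Hbb-bs.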
